A study of Mus musculus with 9 samples.

Results

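The major histocompatibility complex (MHC) genes described here were H2-Ab1, H2-Aa, H2-Eb1 and Cd74 of the class II pathway, and H2-Q6, H2-Q8, H2-K1, H2-D1 and B2m of class I. Their probes were found by gene symbol in the platform annotation of the raw intensity table. They amount to 9 of 19405 named genes and 17 of 46613 probes. The genes were chosen by earlier results of these same arrays, in which the log2 differences of H2-Ab1 and H2-Q6 were among the largest rises at P12.5 (P for postnatal day). Their differences at P12.5 are therefore a description. Counts of members past the threshold of the fit at P12.5 restate how the genes were chosen and support nothing, and p-values of members are given only for the comparison of the P12 groups.

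The arrays came from whole retinas of C57BL/6N mice with oxygen-induced retinopathy, a model in which high oxygen stops the growth of the retinal vessels and room air then leaves the tissue short of oxygen. Hypoxic mice had been kept with their mothers in 75% oxygen from P7 for 5 days and were sampled at P12.5, once they had spent 12 hours in room air. Hyperoxic mice were sampled at P12 on leaving the same oxygen, and control mice were normal P12 mice of the same strain. Each group had 3 Illumina bead arrays, and each array carried the pooled RNA of both retinas of 1 mouse. No normal mice of P12.5 were among the 9 samples, so oxygen history and 12 hours of age and time of day cannot be told apart in any comparison with P12.5.

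MHC class I molecules consist of a heavy chain bound to beta-2-microglobulin and show peptides from inside the cell to CD8 T cells and natural killer cells. MHC class II molecules consist of an alpha and a beta chain, are assembled with the invariant chain Cd74, and show peptides taken up from outside to CD4 T cells. Healthy retina is an immune-privileged tissue with low MHC expression, and class II there is best known from microglia, perivascular macrophages and dendritic cells. Heavy chain genes share an upstream region with an NF-kB site (enhancer A), an interferon response element and the SXY module bound by the RFX, CREB and NF-Y factors. Class II promoters use the SXY module together with the coactivator Ciita.

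The upstream sequences of class I and class II members are set side by side for the motif letters they hold. The 250 bases before the RefSeq start are printed 5′ to 3′ in GRCm38.p6, for 5 of the 6 genes with a sequence used here. For H2-K1 the start is that of 1 RefSeq transcript and lies inside the outer limits of the gene given further on, so distances in that window are from that start. Capitals mark matches on either strand to TGGGGATTCCCCA (the palindrome of enhancer A, which holds its NF-kB site and was read as the longest palindrome around a free centre base in the windows of H2-K1, H2-Q6 and H2-D1), TTTCACTTC (interferon consensus core), GAAANNGAAA (interferon-stimulated response element), TGACG (core of the X2 box) and ATTGG (Y box, CCAAT on the other strand). TGACG reads on both strands of H2-Aa, where the matches overlap.
H2-K1 (chr17:34000348-34000597, minus strand): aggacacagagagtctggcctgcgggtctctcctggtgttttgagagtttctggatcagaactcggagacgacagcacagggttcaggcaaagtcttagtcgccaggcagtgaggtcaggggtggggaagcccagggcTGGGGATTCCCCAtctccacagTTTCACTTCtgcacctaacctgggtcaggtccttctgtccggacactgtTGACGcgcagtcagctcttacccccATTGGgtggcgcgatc
H2-Q6 (chr17:35424600-35424849, plus strand): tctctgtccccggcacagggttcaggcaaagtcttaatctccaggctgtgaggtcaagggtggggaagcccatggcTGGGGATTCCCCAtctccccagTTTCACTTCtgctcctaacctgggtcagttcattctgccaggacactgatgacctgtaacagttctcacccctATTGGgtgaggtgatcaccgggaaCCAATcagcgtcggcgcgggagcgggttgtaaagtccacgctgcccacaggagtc
H2-D1 (chr17:35262844-35263093, plus strand): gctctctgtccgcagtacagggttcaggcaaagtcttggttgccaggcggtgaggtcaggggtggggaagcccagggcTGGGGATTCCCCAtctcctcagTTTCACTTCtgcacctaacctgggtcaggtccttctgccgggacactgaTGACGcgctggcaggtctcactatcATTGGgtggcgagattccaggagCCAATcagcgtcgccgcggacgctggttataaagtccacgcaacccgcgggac
B2m (chr2:122147437-122147686, plus strand): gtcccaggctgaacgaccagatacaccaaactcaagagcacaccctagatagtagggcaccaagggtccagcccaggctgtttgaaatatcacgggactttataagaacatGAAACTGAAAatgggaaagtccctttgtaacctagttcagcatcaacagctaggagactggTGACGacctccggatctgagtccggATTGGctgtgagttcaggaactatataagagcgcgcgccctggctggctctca
H2-Aa (chr17:34287824-34288073, minus strand): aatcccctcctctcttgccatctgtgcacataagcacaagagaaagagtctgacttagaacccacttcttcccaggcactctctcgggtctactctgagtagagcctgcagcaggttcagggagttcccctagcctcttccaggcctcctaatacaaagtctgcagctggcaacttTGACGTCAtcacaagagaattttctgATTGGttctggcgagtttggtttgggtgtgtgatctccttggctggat

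TGGGGATTCCCCA stood 174 bases upstream of the start in H2-Q6, 112 in H2-K1 and 172 in H2-D1, counted to its first base. TTTCACTTC stood 152, 90 and 150 bases upstream in the same genes. Both motifs were rare: 4 of 32851 mouse windows of this length held the first (0.0122%) and 132 the second (0.402%). The windows of H2-Q6, H2-K1 and H2-D1, from which the first was read, are among those counted, so its count is no independent background rate. GAAANNGAAA was in the window of B2m, 139 bases upstream, and in 2.98% of all windows. The short motifs were common, with TGACG in 17.8% and ATTGG in 33.8% of windows, and ATTGG was present in every member window searched, H2-Eb1 included. H2-D1 held both motifs, as H2-Q6 and H2-K1 did. For the palindrome this was fixed in advance, since it was read as a stretch that all of these windows share. The other letters were chosen after the sequences had been read, so nothing is read from their presence. TGACG matched in H2-K1 and H2-D1 but not in H2-Q6. These are matches of letters, not measured binding.

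On 8 arrays the median intensity was 67.4 to 82.3 and 42.1% to 44.5% of probes were detected (detection p under 0.05), while on hyperoxic 1 the median was 163.6 and 30.6% were detected. Its mean correlation with the other arrays was 0.963, against 0.977 to 0.983 for the others. The labels of the P12 arrays are in doubt: the deposited ratios had a median of 1 at 100% of probes over a set made of control 1 with hyperoxic 2 and 3, and at 12.6% over the 3 labelled controls. Conditions are given as labelled, and P12.5 is also set against all 6 P12 arrays together. Levels and the mean of the 6 arrays do not depend on those labels, but the spread of the fit does, and with it the SE, adjusted p-values and calls. Of the 8 retinal neuron markers on the array, 7 were detected, and Pou4f1 of ganglion cells was not. They averaged 12.53 to 12.60 on the log2 scale in hypoxic, 12.78 to 12.81 in hyperoxic and 12.66 to 12.85 in control retinas, lower on every hypoxic array than on any P12 array. Levels below are log2 normalized intensities, and a level of one probe cannot be set against that of another.

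Of the 17 probes, 8 passed the detection filter, which asks for detection on the 3 arrays of some group, and were tested within 19620 probes. They belong to 6 genes. Another 9 probes were detected on no array, among them every probe of H2-Aa, H2-Eb1 and Cd74. Higher values at P12.5 were found in 6 of the 8 tested probes and 4 of the 6 genes against hyperoxic retinas, against control retinas and against all P12 retinas, and none was lower. Against control, 3 genes were left without hypoxic 1 or hypoxic 2, where H2-Ab1 missed the threshold. Over all tested probes the share called higher was 1.13% against hyperoxic, 1.29% against control and 2.26% against all P12 arrays, and the share called lower was 0.566%, 0.601% and 1.57%. The split depended on the scaling: the counts called higher and lower were 222 and 111, 253 and 118, and 443 and 309 in these comparisons, but 182 and 3, 42 and 0, and 252 and 5 under median centring, and 21, 14 and 26 higher with 0 lower with the deposited ratios. The hypoxic arrays lay above every array of the other group, with no overlap, for the same number of probes, 6 of 8 in each comparison, beside 13.2%, 17.6% and 6.91% of all probes. All 6 probes entered the test only through the hypoxic arrays, a way of entry that favours probes higher there, and nothing is read from these shares.

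H2-Ab1 encodes the beta chain of the class II molecule I-A and lies on chromosome 17 (GRCm38.p6, 34263227 to 34269418). Its most intense probe read 7.78, 7.74 and 7.70 in hypoxic retinas, 5.44, 4.78 and 5.31 in hyperoxic retinas and 5.07, 5.94 and 6.09 in control retinas. It was detected on all 3 hypoxic arrays, on 1 hyperoxic array and on 2 control arrays. The lowest hypoxic array lay 1.61 log2 units above the highest P12 array. The hypoxic arrays were tightly grouped, with a mean of 7.74 ± 0.04, against 5.18 ± 0.35 in hyperoxic and 5.70 ± 0.55 in control retinas (SD, n = 3 each). The difference was 2.56 ± 0.26 log2 units against hyperoxic retinas (SE), the largest of all 19620 probes, 2.04 ± 0.26 against control and 2.30 ± 0.22 against all P12 retinas. Without background correction these were 1.42, 1.19 and 1.31 log2 units. The raw intensity was 284.9 to 303.3 on the hypoxic arrays, and 73.1 to 105.5 on the P12 arrays other than hyperoxic 1, which read 181.8 on its raised background.

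The other H2-Ab1 probes followed the same order. Probe 2 read 6.87, 6.92 and 6.92 in hypoxic retinas, 5.33, 4.70 and 4.82 in hyperoxic retinas and 4.96, 5.60 and 5.34 in control retinas. Probe 3 read 6.38, 6.33 and 6.02 in hypoxic retinas, 4.72, 5.00 and 5.04 in hyperoxic retinas and 4.77, 5.22 and 5.28 in control retinas. Both were detected on the 3 hypoxic arrays, on 2 control arrays and on no hyperoxic array, and on both the hypoxic arrays stood clear of every P12 array. Because the hyperoxic arrays give only a bound, the difference there was at least 2.999-fold for probe 2 and at least 1.90-fold for probe 3, with the hyperoxic level set at the lowest detected signal of each array or the probe's own where higher. Against all P12 retinas the fit gave 1.78 ± 0.17 and 1.24 ± 0.15 log2 units. Both probes were below detection on control 1 and the 3 hyperoxic arrays, so these are not measured differences. Pairs of these probes correlated over the 9 arrays with r = 0.932 to 0.985, in values that share the arrays and are dominated by the step at P12.5.

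The partners of H2-Ab1 were not detected. H2-Aa, the I-A alpha chain (chromosome 17, 34282744 to 34287823), read 4.41, 4.33 and 4.35 in hypoxic retinas, 4.65, 4.51 and 4.48 in hyperoxic retinas and 4.46, 4.61 and 4.46 in control retinas. H2-Eb1, the beta chain of I-E (34305867 to 34316674), read 4.82, 4.48 and 4.57 in hypoxic retinas, 4.58, 4.61 and 4.66 in hyperoxic retinas and 4.79, 4.63 and 4.84 in control retinas. The alpha chain gene of I-E, H2-Ea, which is defective in mice of the C57BL/6 haplotype, was not detected either. The 2 probes of Cd74, the invariant chain on chromosome 18 (60803849 to 60812652), read 4.46 to 4.75 in hypoxic, 4.50 to 4.69 in hyperoxic and 4.51 to 4.66 in control retinas. All were detected on 0 of 9 arrays, so the beta chain signal of H2-Ab1 stood at P12.5 without a detectable signal of its alpha chain or of Cd74. With 1 or 2 probes a gene, an insensitive probe and an unexpressed gene cannot be told apart.

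**Figure D1:**
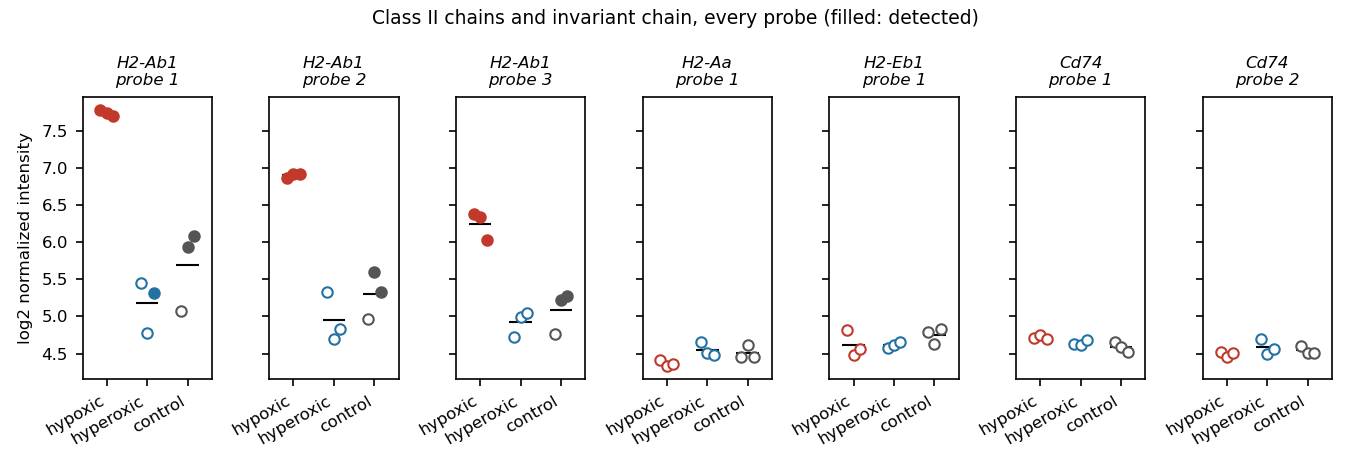
Log2 normalized intensity (vertical axis) of every probe of H2-Ab1, H2-Aa, H2-Eb1 and Cd74 on the 3 hypoxic, 3 hyperoxic and 3 control arrays. Each point is 1 array, filled where the probe was detected, and black bars are group means: the hypoxic points of the 3 H2-Ab1 probes lie above all P12 points, while H2-Aa, H2-Eb1 and Cd74 have open points throughout.

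Genes that load or control class II molecules did not pass the test. Of 13 listed genes, 9 were tested and 0 passed in any comparison, with a median difference of -0.04 log2 units between hypoxic and all P12 retinas, beside 0.00 for all genes. Ciita, the class II coactivator, differed by -0.19 ± 0.23 (adjusted p = 0.679) and Ctss, the protease that trims the invariant chain, by 0.20 ± 0.14 (adjusted p = 0.448, limma). Rfx5, a subunit of the RFX complex, differed by -0.23 ± 0.10 (adjusted p = 0.237). H2-DMb1 and H2-Oa, chains of the peptide-loading and peptide-editing molecules, were detected on no array. Other chains of these molecules were detected, H2-DMa and H2-Ob on 8 arrays each and H2-DMb2 on 5.

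Among the class I heavy chains, H2-Q6 of the Qa-2 region (chromosome 17, 35424850 to 35430055) was detected at P12.5 alone. Its tested probe read 6.57, 6.43 and 6.51 in hypoxic retinas, 4.60, 4.72 and 4.60 in hyperoxic retinas and 4.51, 5.02 and 4.83 in control retinas. With this processing it was at least 2.27-fold higher in hypoxic than in hyperoxic retinas, at least 2.71-fold higher than in control and at least 2.48-fold higher than in all P12 retinas. Bounds of this kind depend on the processing, since without background correction the difference against hyperoxic retinas was 0.89 log2 units for H2-Q6, 0.77 for H2-Q8 and 0.39 for H2-K1, beside 1.87, 1.68 and 0.89 with it. The second H2-Q6 probe was detected on no array, with 4.98, 4.66 and 4.81 in hypoxic retinas, 4.57, 4.45 and 4.53 in hyperoxic retinas and 4.44, 4.33 and 4.29 in control retinas.

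H2-Q8 belongs to the same region. It read 6.58, 6.51 and 6.41 in hypoxic retinas, 4.83, 4.80 and 4.82 in hyperoxic retinas and 4.60, 5.17 and 4.93 in control retinas, and was detected on 3, 0 and 1 of these arrays. It was at least 2.26-fold higher in hypoxic than in hyperoxic retinas. The fit gave 1.60 ± 0.14 log2 units against control and 1.64 ± 0.12 against all P12 retinas. Control 2 was the only P12 array with a detected signal, so these are not measured differences. The H2-Q6 and H2-Q8 probes correlated with r = 0.997 over the 9 arrays and 0.935 over the 6 P12 arrays. Heavy chain genes are close paralogs and the probe sequences were not used here, so the signals of H2-Q6, H2-Q8 and their neighbours are not separate evidence for each gene.

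H2-K1, a classical heavy chain (chromosome 17, 33996012 to 34000619), was likewise detected at P12.5 alone. Its tested probe read 5.66, 5.56 and 5.60 in hypoxic retinas, 4.68, 4.73 and 4.73 in hyperoxic retinas and 4.50, 4.55 and 4.50 in control retinas. The bounds were at least 1.22-fold higher in hypoxic than in hyperoxic, at least 1.46-fold higher than in control and at least 1.33-fold higher than in all P12 retinas. Its 2 further probes were detected on no array.

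H2-D1, the other classical heavy chain of this strain (chromosome 17, 35263094 to 35267497), was detected on all 9 arrays and showed no such step. It read 8.73, 8.28 and 8.54 in hypoxic retinas, 8.36, 8.18 and 8.22 in hyperoxic retinas and 7.91, 8.36 and 8.46 in control retinas. The groups overlapped, and the differences were 0.26 ± 0.17 log2 units against hyperoxic, 0.27 ± 0.17 against control and 0.27 ± 0.14 against all P12 retinas. B2m, the shared light chain of class I molecules (chromosome 2, 122147687 to 122153082), read 8.77, 8.87 and 8.79 in hypoxic retinas, 9.19, 8.77 and 8.90 in hyperoxic retinas and 9.18, 8.83 and 9.17 in control retinas. Its groups overlapped too, with -0.14 ± 0.14, -0.25 ± 0.14 and -0.20 ± 0.12 log2 units in the same 3 comparisons. The sign of the B2m difference turned under median centring, to 0.20, 0.01 and 0.11, so no direction is given for it. A second probe of each gene was detected on no array. The light chain was thus measurable throughout, and the heavy chain probes that stood out at P12.5 did so beside a B2m signal whose groups overlapped.

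**Figure D2:**
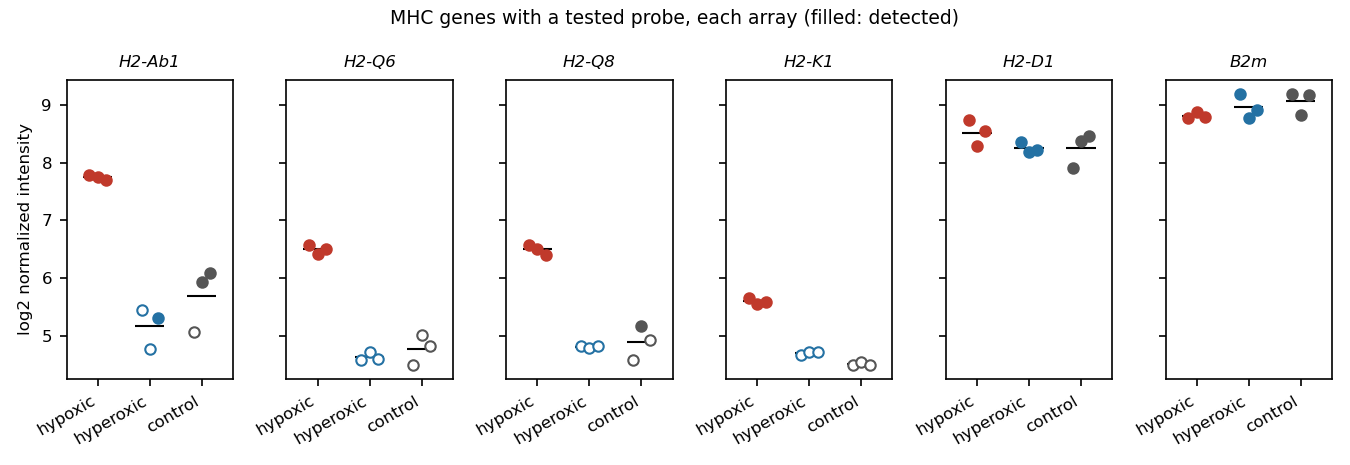
Log2 normalized intensity (vertical axis) of the most intense tested probe of H2-Ab1, H2-Q6, H2-Q8, H2-K1, H2-D1 and B2m on each array, by group. Points are arrays, filled where detected, and black bars are group means: hypoxic arrays stand apart for the first 4 genes and overlap the P12 arrays for H2-D1 and B2m.

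Between hyperoxic and control retinas no member passed the test. The 8 probes had adjusted p-values of 0.541 to 0.988 (limma), and 0% of the 19620 probes were called in either direction, with a lowest adjusted p of 0.458 and 1873 probes at an unadjusted p under 0.05. H2-Ab1 differed by -0.52 ± 0.26 log2 units (adjusted p = 0.55) on its first probe, -0.35 ± 0.19 (adjusted p = 0.573) on probe 2 and -0.17 ± 0.17 (adjusted p = 0.73) on probe 3, with overlapping arrays. H2-D1 differed by 0.01 ± 0.17 (adjusted p = 0.988) and B2m by -0.11 ± 0.14 (adjusted p = 0.798). The 3 hyperoxic arrays lay above the 3 control arrays, without overlap, for 1 probe, that of H2-K1, beside 4.33% of all probes, at levels that were not detected in either group.

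On probes 1 and 2, but not probe 3, H2-Ab1 differed more between P12 arrays split by the ratio reference than between labelled groups. Control 2, control 3 and hyperoxic 1 averaged 5.82 ± 0.34 on probe 1, against 5.05 ± 0.26 on control 1, hyperoxic 2 and hyperoxic 3 (SD, n = 3 each). The difference was 0.77 log2 units (adjusted p = 0.0409, limma), and on probes 2 and 3 it was 0.59 (adjusted p = 0.0214) and 0.14 (adjusted p = 0.64). Among the P12 arrays, probe 1 was detected on control 2, control 3 and hyperoxic 3 alone, and probes 2 and 3 on control 2 and control 3 alone. These differences thus rest largely on values below detection. Beside these values, the 10 endothelial genes detected averaged 6.08 to 6.25 on the first 3 arrays and 7.02 to 7.11 on the others. Such a split was not particular to them. The Müller glia list averaged 9.98 to 10.01 and 10.13 to 10.26, and the retinal neuron list 12.66 to 12.78 and 12.81 to 12.85. The dendritic cell list lay the other way, 5.94 to 6.53 and 5.67 to 5.72, and the remaining lists overlapped. Hyperoxic 1, the array with the raised background, is among the first 3, and its part in the H2-Ab1 difference was not tested. The split was found in these same data, and 866 of 19626 probes were called under it, 331 higher and 535 lower on the first 3 arrays.

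Other genes of the MHC region, some of them paralogs whose probes may share signal with the heavy chains above, were compared in the same way. Of 25 further class I, class I-like and MHC-region genes listed, 20 were on the array and 9 were tested. Of these, 3 rose and 0 fell against hyperoxic retinas, 2 rose and 0 fell against control, and 3 rose and 1 fell against all P12 retinas. The median differences were 0.11, 0.21 and 0.20 log2 units, and by leading probe 1.2%, 1.53% and 2.45% of all genes rose in those comparisons, while 0.758%, 0.767% and 2.06% fell. H2-T23, which encodes the non-classical molecule Qa-1 read by NKG2 receptors of natural killer and T cells, had 7.27, 7.07 and 7.22 in hypoxic retinas, 6.03, 5.88 and 5.81 in hyperoxic retinas and 5.78, 6.06 and 5.99 in control retinas. It was detected on all 9 arrays, its hypoxic arrays stood clear of the rest, and it was 1.26 ± 0.10 log2 units higher in hypoxic than in all P12 retinas (adjusted p = 5.67e-04). Its second probe gave 1.74 against hyperoxic (adjusted p = 4.88e-04) and 1.63 against control retinas (adjusted p = 6.75e-04), the lowest adjusted p of each comparison, and 1.68 against all P12 retinas (adjusted p = 1.71e-04). The list was chosen with earlier results of these data known, so its calls and p-values are a description and no separate support for the members.

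H2-Q2, a non-classical gene of the Q region, had 8.11, 8.16 and 8.20 in hypoxic retinas, 7.37, 6.68 and 7.32 in hyperoxic retinas and 6.96, 7.51 and 7.45 in control retinas. It was 1.04 ± 0.20 log2 units higher than in hyperoxic (adjusted p = 0.041) and 0.94 ± 0.18 higher than in all P12 retinas (adjusted p = 0.0248), and its 0.85 against control missed the threshold (adjusted p = 0.0674). The call against all P12 retinas was lost without any 1 of the hypoxic arrays (adjusted p = 0.117 to 0.126), and that against hyperoxic retinas without any 1 of them or of control 2, control 3, hyperoxic 2 and hyperoxic 3 (adjusted p = 0.0537 to 0.174). H2-Q5 of the same region had 6.03, 6.14 and 5.90 in hypoxic retinas, 4.86, 5.05 and 4.92 in hyperoxic retinas and 5.38, 5.36 and 5.59 in control retinas, 0.83 ± 0.10 log2 units higher than in all P12 retinas (adjusted p = 0.00398). Against control its 0.58 (adjusted p = 0.0421) missed the threshold without any 1 array other than hyperoxic 1 and hyperoxic 2 (adjusted p = 0.0722 to 0.179). The second probe of H2-Q2 and that of H2-Q5 were detected on no array. Fcgrt, the neonatal Fc receptor, a class I-like molecule, fell by 0.46 log2 units against all P12 retinas (adjusted p = 0.0487). Its call held in 8 of 19 alternative settings and was lost without any 1 hypoxic or control array or hyperoxic 3. Cd1d1, which presents lipids, differed by 0.35 ± 0.12 (adjusted p = 0.13), and H2-T9, H2-T10 and H2-Q7 did not pass. H2-Q7 read 5.31, 5.31 and 5.16 in hypoxic retinas, 6.24, 4.66 and 4.83 in hyperoxic retinas and 4.90, 4.84 and 4.89 in control retinas. Its highest value was that of hyperoxic 1, the array with the raised background. H2-Bl was not tested and was detected on 2 arrays, both hypoxic.

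**Figure D3:**
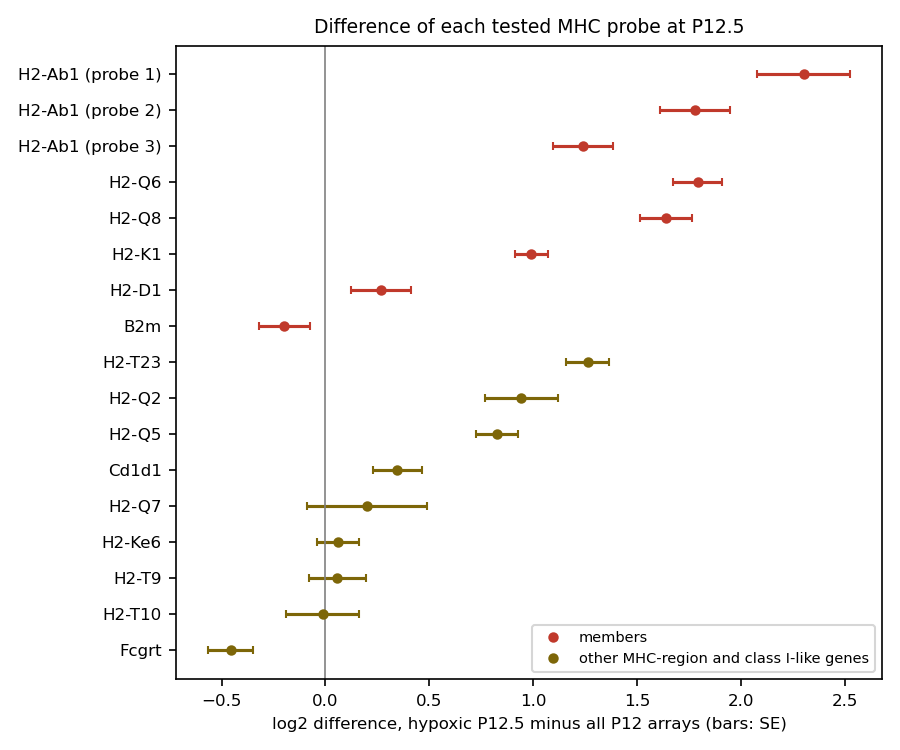
Difference in log2 normalized intensity between the hypoxic and all P12 arrays (horizontal axis) for each tested member probe and for the leading probe of the 9 other tested genes. Points are estimates and bars 1 SE of the limma fit, also where the P12 arrays were below detection: H2-Ab1, H2-Q6, H2-Q8, H2-T23, H2-K1, H2-Q2 and H2-Q5 lie between 0.83 and 2.30, and Fcgrt lies at -0.46.

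The machinery that feeds class I molecules did not pass the test. Of 14 listed genes, 10 were tested and 0 passed in any comparison, with a median of -0.03 log2 units against all P12 retinas. Psmb8, an immunoproteasome subunit, differed by -0.17 ± 0.17 (adjusted p = 0.592), Tap2, of the peptide transporter, by 0.01 ± 0.12 (adjusted p = 0.958) and Nlrc5, the class I coactivator, by -0.05 ± 0.12 (adjusted p = 0.834). Canx, a chaperone of new heavy chains, had the highest value, 0.71 ± 0.23 (adjusted p = 0.111).

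Genes of interferon signalling likewise gave 0 calls among 13 tested of 23 listed, with a median of -0.06 log2 units against all P12 retinas. Irf1, an interferon-induced activator of MHC genes, differed by 0.17 ± 0.12 (adjusted p = 0.462), and Irf8, a factor of myeloid cells, by 0.39 ± 0.10 (adjusted p = 0.0672). Among the interferons and their classical targets, Ifng, Ifnb1, Gbp2, Cxcl9, Cxcl10, Ifit1 and Isg15 were detected on no array, whereas Gbp3, Irf7, Stat2 and Irf9 were detected on 8 arrays each and Ifit3 on 2.

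**Figure D4:**
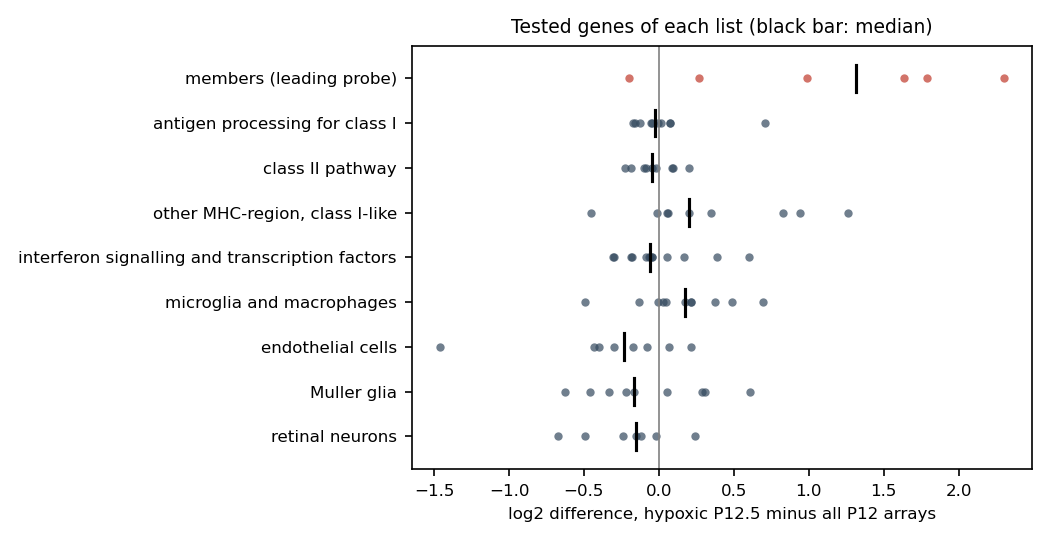
Difference in log2 normalized intensity between the hypoxic and all P12 arrays (horizontal axis) for every tested gene of each list, by leading probe. Points are genes, also where P12 arrays were below detection, and black bars list medians: 4 of the 6 tested members lie at 0.99 or above, and the medians of the antigen processing, class II and interferon lists lie between -0.06 and -0.03.

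Markers of cells that carry MHC molecules are set beside these values, since in a whole retina a change in the number of cells of a type and a change in RNA per cell cannot be told apart. Of the microglia and macrophage list, 11 genes were tested and 0 passed in any comparison, with a median of 0.17 log2 units against all P12 retinas. Of these 11 differences 8 were positive, the largest that of Mpeg1, 0.69 ± 0.29 (adjusted p = 0.204, limma). The mean level of the 12 detected genes of this list was 6.38 to 6.53 in hypoxic, 6.13 to 6.43 in hyperoxic and 6.28 to 6.35 in control retinas. The value of 6.43 was that of hyperoxic 1. Itgam, P2ry12, Cd14 and Ptprc were detected on no array. Laptm5, a lysosomal protein of haematopoietic cells, differed by 0.38 ± 0.10 (adjusted p = 0.066), Trem2 by 0.49 ± 0.16 (adjusted p = 0.111) and Cx3cr1, the fractalkine receptor of microglia, by -0.49 ± 0.14 (adjusted p = 0.0853).

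Of the dendritic cell markers 3 of 8 were detected on any array, of the B cell markers 1 of 4 and of the T and NK cell markers 1 of 8. Itgax, Xcr1, Clec9a, Cd79a, Cd3e and Cd8a were below detection on all arrays, while Zbtb46 of dendritic cells was detected on 9 arrays, Ms4a1 of B cells on 8 and Klrb1c of natural killer cells on 5. Against all P12 retinas these 3 genes differed by -0.17 (adjusted p = 0.483), -0.03 (adjusted p = 0.916) and 0.03 (adjusted p = 0.885). Of the perivascular macrophage and monocyte list 2 genes were tested, and Lyve1, a hyaluronan receptor of these macrophages, fell by 0.67 log2 units (adjusted p = 0.0347). Of 8 tested endothelial genes Slco1c1, a thyroxine transporter of the blood-retina barrier, fell by 1.46 log2 units against all P12 retinas (adjusted p = 0.0271), and the list averaged 6.28 to 6.34 in hypoxic, 6.08 to 7.11 in hyperoxic and 6.22 to 7.05 in control retinas. Of 9 tested Müller glia genes Aqp4, a water channel, fell by 0.62 (adjusted p = 0.0216) and Clu by 0.46 (adjusted p = 0.0331), and of 7 tested neuron genes Gnat1, the rod transducin, fell by 0.50 (adjusted p = 0.0289). The falls of Lyve1, Slco1c1, Aqp4, Clu, Gnat1 and Fcgrt kept their sign but missed the threshold under median centring (adjusted p = 0.108 to 0.667) and with the deposited ratios (adjusted p = 0.391 to 0.798). The part of these cells in the MHC values was not tested.

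The genes whose profile over the 9 arrays was most like that of H2-Ab1 were Ccl3, a chemokine of activated microglia and macrophages (r = 0.996), Smtnl2 (r = 0.990) and Eif2s2, a translation initiation factor subunit (r = 0.987), among 10942 genes. Ccl3 read 5.81, 5.73 and 5.66 in hypoxic retinas, 4.73, 4.39 and 4.51 in hyperoxic retinas and 4.52, 4.90 and 5.00 in control retinas. It was picked for its likeness to H2-Ab1 on these arrays, so the order of its values adds nothing to that of H2-Ab1. The nearest to H2-D1 were Ncmap (r = 0.935), Ccny (r = 0.924) and 1700119H24Rik (r = 0.922), and the nearest to B2m were Card10 (r = 0.957), Shank3 (r = 0.954) and Lrrc29 (r = 0.945). These correlations describe shared arrays and carry no test.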

How the data were processed

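Whole-retina RNA of 9 mice in 3 labelled groups was analysed. The deposited raw table holds a linear intensity per probe and array, which the authors' file gives without normalization, as medians differ between arrays. Beside each intensity stands a detection p-value per the file headers, used with the array whose intensity it follows, which for 5 arrays was not the one beside it. The deposited value table holds a linear ratio per probe, used only as an alternative and to find its reference among 84 sets of 3 arrays (tolerance 0.0015). The sources used here do not state what the scanner software did before. Per the labels, each array carried biotin-labelled cRNA.

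The 27 of 46640 probes with only values of 0 were dropped. Of the rest 32781 had 1 gene symbol, 55 several (not named) and 13777 none, and 32709 were matched to a current identifier. Intensities were normalized with neqc of limma 3.58.1 in R 4.3.3 (offset 16, quantile, log2). The offset shrinks differences of dim probes, while the background correction widened those of the dim MHC probes. For H2-K1 against hyperoxic retinas the difference was 0.89 log2 units with the correction and 0.39 without it. Probes detected (p under 0.05) on every array of some group entered 1 linear model with 3 group means (lmFit, eBayes), with two-sided p-values adjusted by Benjamini-Hochberg over all 19620 probes at 0.05. The most intense tested probe stood for a listed gene. Sequences and positions are from RefSeq on GRCm38.p6, a build not tied to the files. Coordinates of H2-Q8 were not used.

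The members and lists were chosen with earlier results of these data known, and the motif letters after the upstream sequences had been read, with other, longer X box forms tried too. By rule the text names all members, of each list up to 6 genes that passed at P12.5, and the 3 genes of highest Pearson correlation with H2-Ab1, H2-D1 and B2m. List genes that did not pass were named for their role, after their values were seen. The pipeline was tested on simulated data. The alternatives were no background correction, an offset of 50, median centring, the deposited ratios, no or a stricter detection filter, the detection p columns as placed in the table, array weights, the replicate block, P12 arrays regrouped and leaving out each array. The other scalings of the marker genes that fell were added after seeing the data.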

Additional observations from a re-analysis of the deposited data

How the results depend on the processing

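Under 19 alternative settings the number of member genes called at P12.5 was 4 against all P12 retinas, 3 to 5 against hyperoxic and 3 to 4 against control retinas, which says nothing of stability since these genes were chosen for that rise. The sizes moved: against hyperoxic retinas the first H2-Ab1 probe ranged from 1.42 to 2.86 log2 units, H2-Q6 from 0.89 to 2.06, H2-Q8 from 0.77 to 1.87 and H2-K1 from 0.39 to 1.03, lowest in each case without background correction. With the deposited ratios H2-K1 missed the threshold against hyperoxic and against control retinas. The number of all probes called was far less stable. It was 333 against hyperoxic, 371 against control, 0 between hyperoxic and control and 752 against all P12 retinas. In this order median centring gave 185, 42, 0 and 257, the deposited ratios 21, 14, 0 and 26, and array weights 8622, 4214, 6217 and 6351. With the P12 arrays regrouped by the ratio reference the counts were 1212, 1863, 866 and 1815. There control 2, control 3 and hyperoxic 1 stood in place of the hyperoxic group, and the reference arrays in place of control. No detection filter gave 190 against hyperoxic, and against control no background correction gave 694 and an offset of 50 gave 627. Leaving out 1 array gave 48 to 1943, 18 to 2996, 0 to 501 and 73 to 3036, highest without hyperoxic 1. Median centring moved the median of all probes to 0.31 against hyperoxic and 0.18 against control, and the deposited ratios to 0.20 and 0.05. Further class I genes called higher, 3, 2, 0 and 3 in that order, came to 1, 0, 0 and 1 with the deposited ratios and to 5 and 4 in the first 2 comparisons with array weights, and against control to 1 with median centring and 1 to 4 without 1 array.

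The sign of some small differences turned. B2m became 0.20, 0.011 and 0.11 against hyperoxic, control and all P12 retinas under median centring, and 0.24 against hyperoxic and 0.068 against all P12 retinas with the deposited ratios. Between hyperoxic and control retinas H2-D1 became -0.088 with median centring, -0.21 with the deposited ratios and -0.10 with array weights, and ranged from -0.16 to 0.12 when 1 array was left out. H2-Q8 ranged from -0.24 to 0.053. The regrouping of the P12 arrays gives another contrast, control 2, control 3 and hyperoxic 1 minus control 1, hyperoxic 2 and hyperoxic 3. Its values are therefore no turn of sign in the labelled comparison. They were 0.77, 0.59 and 0.14 on the 3 probes of H2-Ab1, 0.21 for H2-Q6 and 0.24 for H2-Q8. For H2-K1 the value was -0.076 and for B2m 0.11. Member genes called between hyperoxic and control retinas were 3 with array weights, which gave hyperoxic 3 a weight of 21.5 and hyperoxic 1 one of 0.098. In the regrouped contrast 1 was called. The cause of the turns of sign was not tested.

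The replicate number as a block gave 127 probes against hyperoxic, 42 against control and 182 against all P12 retinas, 4 member genes in each, and 1 further class I gene against control. Same-numbered arrays correlated with -0.34 to 0.11 in their deviations from the group means, so the numbers were not taken to pair the samples. The number of arrays limits the precision, and probes below detection give bounds only.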
